A study of Homo sapiens with 16 samples.

Results

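Aminoacyl-tRNA synthetases are the enzymes that join each amino acid to its tRNA, and the 37 genes described here code for them. They were taken by symbol from the 60623 genes of the files, as the names that end in ARS, ARS1 or ARS2 after a 1-letter amino acid code, together with *EPRS*, *FARSA*, *FARSB* and *FARS2*. The files use the older symbols (*AARS* for *AARS1*, and so on), which are kept here. Of the 37 genes, 20 code for cytosolic enzymes, and 17, whose names end in 2, code for mitochondrial enzymes.

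RNA-Seq was done in MUTZ-3, an AML line with inv(3) that overexpresses *EVI1*, grown with GM-CSF and with medium conditioned by the bladder carcinoma line 5637. In the PARPi experiment, cells received DMSO as the vehicle, 10 µM olaparib or 1 µM talazoparib, both inhibitors of PARP1, for 12, 24 or 48 h, and untreated cells at 0 h gave 1 more library. In the knockdown experiment, cells carried a lentiviral vector with a non-targeting control shRNA (NTC), shEVI1-2531 or shEVI1-2532, were selected with puromycin and were harvested at day 3 or day 6. Each of the 16 conditions was sequenced once, so a pair of libraries has no replicate, and all tests take the 3 time points or the 2 days as the replicates of a treatment. *MECOM*, the gene of EVI1, held 5123 counts in NTC at day 3 and 4825 at day 6, against 1171 and 2114 with shEVI1-2531 and 452 and 405 with shEVI1-2532.

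Each compartment that makes protein needs its own set of charged tRNAs, and most synthetases have a separate nuclear gene for the mitochondrial enzyme. *GARS* and *KARS* serve both compartments from 1 gene. There is no glutamine enzyme of the mitochondria in the family, because mitochondrial glutaminyl-tRNA is made from a tRNA that *EARS2* first loads with glutamate. Many cytosolic members are known targets of ATF4, the transcription factor of the amino acid response, which binds C/EBP-ATF response elements (CARE) in their promoters. *WARS* is in addition known to be induced by interferon.

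The promoters that carry the CARE core are shown because the genes that fell furthest in both experiments were among those that have it. Sequences are from RefSeq on GRCh38.p14, which had entries for 30 of the 37 genes, each running from 250 bases before the transcription start to 50 after it. The letters searched for were TGATGNAA on either strand, and they stood in 7 of 16 cytosolic and in 1 of 14 mitochondrial genes with an entry, against 1217 of all 27305 genes with one (4.46%). Capitals mark the match, each window has 60 bases read 5′ to 3′ along the gene, and a match on the other strand reads as the reverse complement, TTGCATCA in most of them. The last window shows *WARS*, with the core of the interferon-stimulated response element (ISRE), GAAA, any 2 bases and GAAA, which stood in 4.38% of all genes with an entry and in *WARS* and *EARS2* among the 30 genes. A match describes these letters only.
AARS: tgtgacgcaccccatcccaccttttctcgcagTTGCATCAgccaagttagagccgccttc
CARS: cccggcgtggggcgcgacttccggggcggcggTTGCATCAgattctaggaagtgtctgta
GARS: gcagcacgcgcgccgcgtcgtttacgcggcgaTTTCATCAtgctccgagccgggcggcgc
IARS: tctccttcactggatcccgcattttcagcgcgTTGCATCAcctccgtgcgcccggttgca
MARS: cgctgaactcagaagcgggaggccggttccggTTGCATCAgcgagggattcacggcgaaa
NARS: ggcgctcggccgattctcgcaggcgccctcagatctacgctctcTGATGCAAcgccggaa
TARS: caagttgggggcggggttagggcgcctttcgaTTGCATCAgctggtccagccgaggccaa
WARS: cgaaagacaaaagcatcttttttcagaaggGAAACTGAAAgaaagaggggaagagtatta

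The windows lie at chr16:70289666-70289725 for *AARS*, chr11:3057398-3057457 for *CARS*, chr9:92293683-92293742 for *IARS*, chr18:57621807-57621866 for *NARS* and chr14:100375373-100375432 for *WARS*, all on the minus strand. Those of *GARS* (chr7:30594813-30594872), *MARS* (chr12:57488032-57488091) and *TARS* (chr5:33440935-33440994) are on the plus strand. Counted from the transcription start, the match began at -187 in *AARS*, -33 in *GARS*, -13 in *IARS*, -4 in *MARS* and -2 in *CARS*, and just inside the transcript in *TARS* and *NARS*. The mitochondrial gene with a match was *YARS2*, at -197.

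Levels are in CPM, counts relative to the library total after TMM scaling, and ratios are on the log2 scale with a prior count of 2. Library totals ran from 55999673 to 72681943 counts with PARPi and from 95523038 to 120716213 with shRNAs, and all 37 genes passed the filter on low counts. *VARS2* was close to the detection limit, with 0 to 31 counts in a library, and its ratios carry little information. *SARS2* held 69 to 404 counts, and the other members more. Both overlap another gene on the same strand. *MARS* overlaps *ARHGAP9* and *DDIT3*, and *HARS* overlaps *HARS2*, on the opposite strand. The strand setting of the counting is not given in the sources used here. Of the lineage markers, *MPO* ranged from 603 to 4827 CPM, while the erythroid list summed to at most 0.184 CPM and *MS4A1* and *KRT5* were at 0 in every library.

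Per kilobase of exonic sequence, the cytosolic genes stood well above the mitochondrial ones. In the DMSO library of 12 h the median was 41.1 CPM per kilobase for the cytosolic and 8.98 for the mitochondrial genes. The highest cytosolic gene was *FARSA*, the catalytic subunit of phenylalanyl-tRNA synthetase, at 119 CPM per kilobase, and the highest mitochondrial gene was *IARS2* at 35.5. *CARS*, at 5.13, was the lowest cytosolic gene and lay among the mitochondrial ones, on an exonic length that joins all its isoforms. Summed over the 20 genes, cytosolic synthetase transcripts made up 4647 CPM in DMSO at 12 h, 5036 in DMSO at 48 h, 3114 with olaparib at 48 h and 2852 with talazoparib at 48 h. The 17 mitochondrial genes summed to 880, 799, 526 and 404 CPM in the same libraries.

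With PARPi, synthetase transcripts fell below DMSO in step with time. The cytosolic median log2 ratios at the 3 successive hours were -0.09, -0.22 and -0.67 with olaparib and -0.12, -0.31 and -0.91 with talazoparib. The mitochondrial medians were -0.04, -0.22 and -0.45 with olaparib and -0.11, -0.38 and -0.87 with talazoparib. Over all 17218 genes tested, the median stayed between -0.02 and 0.00 in these pairs. At 48 h, 19 of the 20 cytosolic genes were below DMSO with either inhibitor, as were 16 of 17 mitochondrial genes with olaparib and all 17 with talazoparib. Over the whole course, 13 cytosolic and 10 mitochondrial genes were below DMSO in all 6 pairs, in which both inhibitors share the DMSO libraries.

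**Figure D1:**
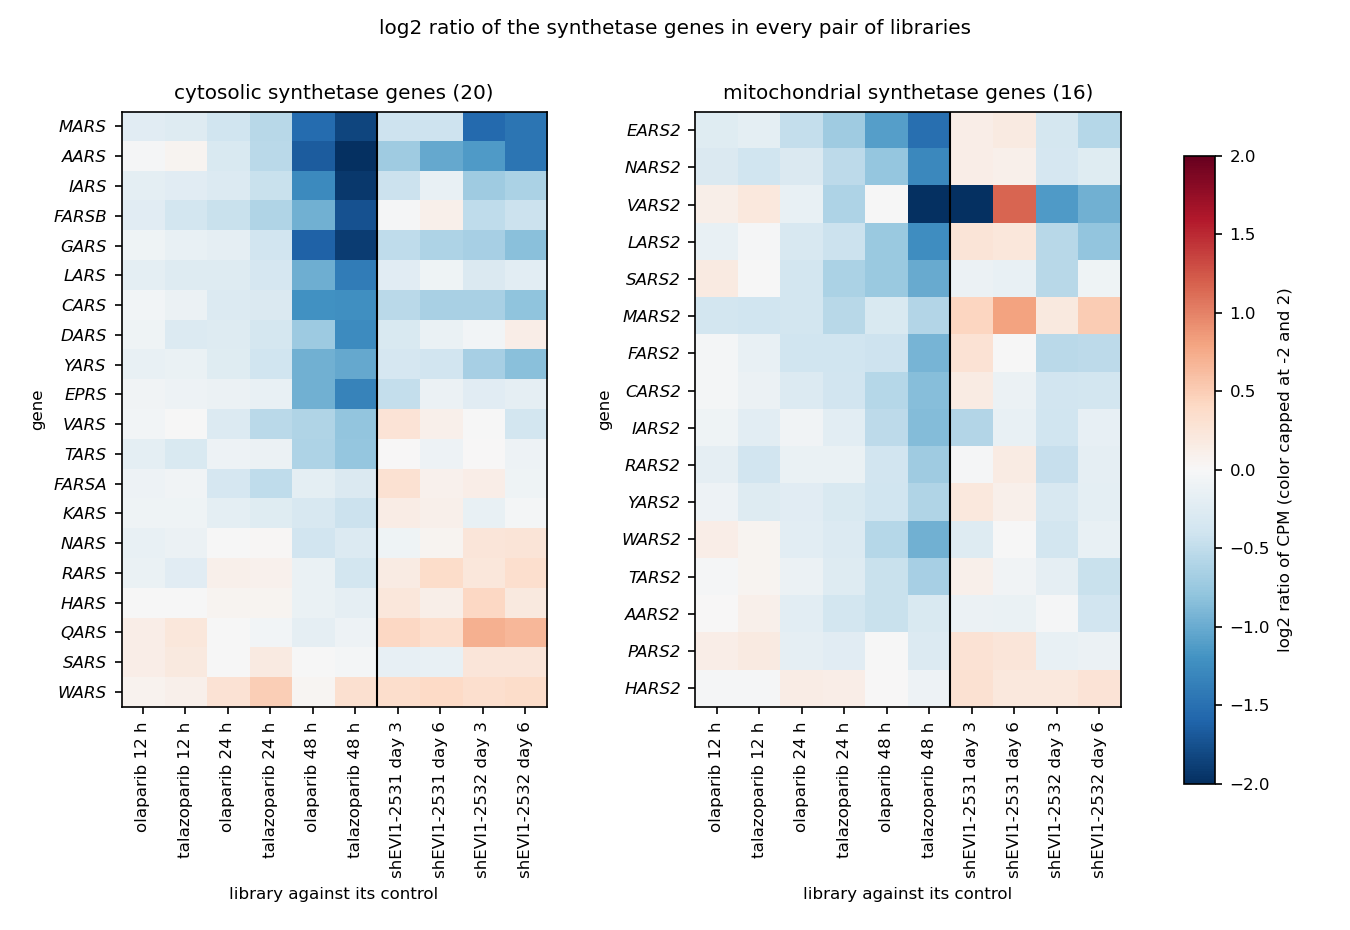
Each cell is the log2 ratio of CPM in 1 library to its control, DMSO of the same hour or NTC of the same day, for the 20 cytosolic genes (left) and 16 mitochondrial genes (right), ordered by their mean over the 6 PARPi pairs. Blue deepens from 12 to 48 h in most rows, while *WARS*, *SARS*, *QARS* and *HARS2* stay near white or red, and *MARS* and *AARS* are the deepest blue with shEVI1-2532.

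*AARS* (chr16:70252295-70289543), the alanine enzyme, had the lowest 48 h ratios of the cytosolic genes. It stood at 180, 161 and 237 CPM in DMSO at 12, 24 and 48 h, at 176, 130 and 74.7 with olaparib, and at 186, 111 and 56.0 with talazoparib, against 178 in untreated cells. The inhibitor libraries lay at the DMSO level at 12 h and below every DMSO library at 48 h, with log2 ratios of -1.67 and -2.08 there. *MARS* (chr12:57475445-57517569), for methionine, held 199, 179 and 254 CPM in DMSO, 170, 136 and 87.4 with olaparib and 166, 121 and 70.9 with talazoparib. Both inhibitor libraries lay below DMSO at each hour. *IARS* (chr9:92210207-92293756), for isoleucine, fell from 363 and 322 CPM with olaparib at 12 and 24 h to 195 at 48 h, and from 353 and 287 with talazoparib to 125, while DMSO held 414, 391 and 473.

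*GARS* (chr7:30594838-30634033), for glycine in both compartments, held 245, 220 and 367 CPM in DMSO, 231, 195 and 119 with olaparib and 221, 169 and 98.8 with talazoparib. Its 48 h ratios were -1.62 and -1.89. *CARS* (chr11:3000922-3057613), for cysteine, had 48 h ratios of -1.22 and -1.23, reached in another way. It was at 49.4, 44.4 and 42.9 CPM with olaparib and at 47.4, 44.1 and 42.7 with talazoparib, and so hardly moved in treated cells, while DMSO held 51.5 and 53.6 CPM at 12 and 24 h and 99.7 at 48 h.

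The DMSO library of 48 h thus carried part of the late ratios. Against DMSO at 24 h, its cytosolic median was 0.26 and its mitochondrial median -0.13, with 14 of 20 cytosolic and 4 of 17 mitochondrial genes higher. Set against DMSO of 24 h instead, a control of another hour, the 48 h libraries still had cytosolic medians of -0.56 with olaparib and -0.81 with talazoparib and mitochondrial medians of -0.59 and -0.94. Set against the same inhibitor at 12 h, the cytosolic medians were -0.64 and -0.80, with 18 of 20 genes lower for either inhibitor, and the mitochondrial medians were -0.60 and -0.86. Fewer cells of a type and less RNA per cell cannot be told apart in such bulk samples.

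**Figure D2:**
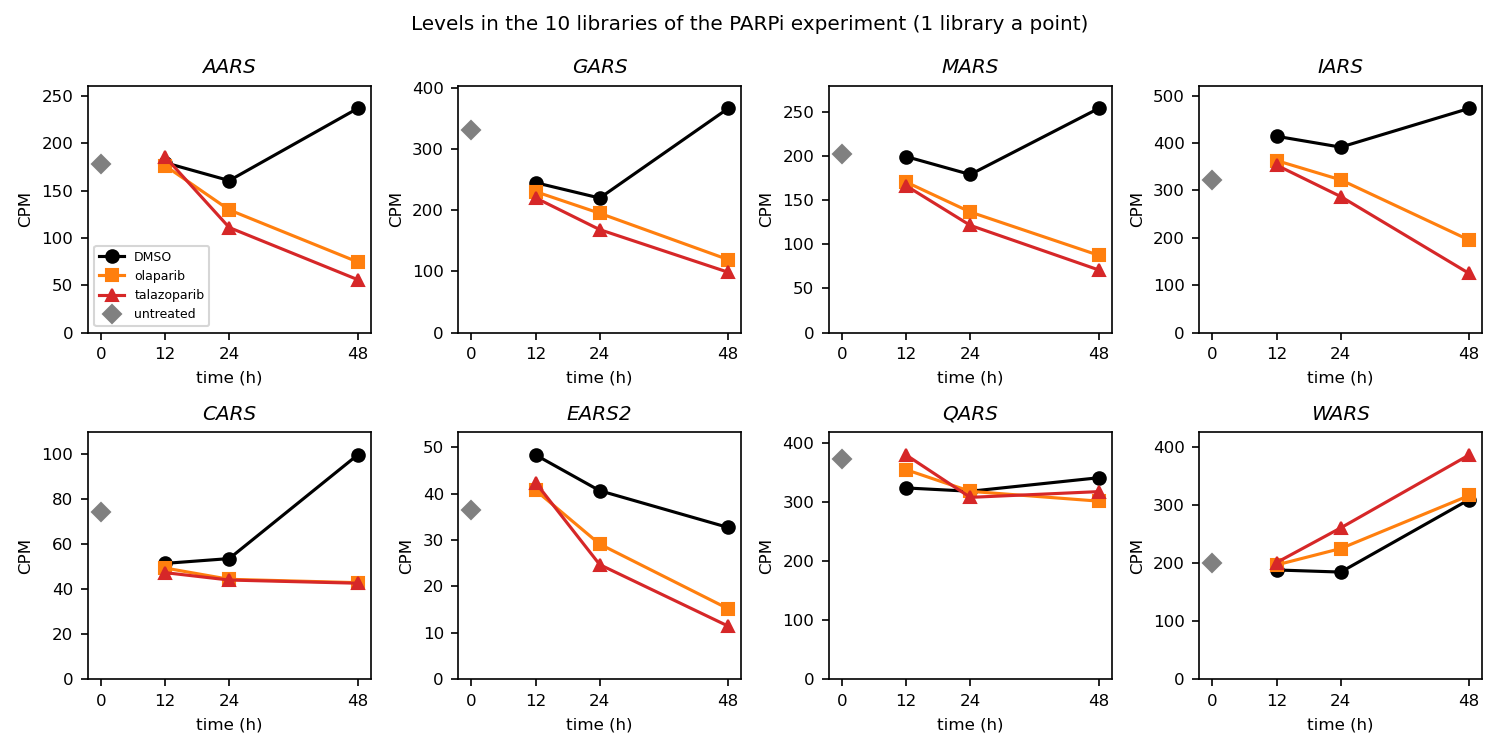
CPM (vertical axis, from 0) against hours for 8 synthetase genes, with 1 point per library for DMSO (black), olaparib (orange), talazoparib (red) and untreated cells (gray). *AARS*, *GARS*, *MARS* and *IARS* decline in both inhibitor series while DMSO is highest at 48 h, *CARS* stays between 42.7 and 49.4 CPM with PARPi while DMSO reaches 99.7, and *WARS* rises in all 3 series.

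The test of a change of the inhibitor effect with time, in edgeR's quasi-likelihood fit with Benjamini-Hochberg adjustment over all genes, called 15 synthetase genes at an adjusted p under 0.05, all of them downward and none upward. Of all genes tested, 9.4% were called downward and 10.4% upward. The slope, as a log2 change for each doubling of hours, was -0.94 ± 0.13 (SE) for *AARS* (adjusted p = 2.65e-11), -0.82 ± 0.13 for *GARS*, -0.72 ± 0.13 for *MARS*, -0.69 ± 0.13 for *IARS* and -0.57 ± 0.13 for *CARS*. The other 5 cytosolic genes called were *EPRS* (-0.53), *FARSB* (-0.53), *LARS* (-0.48), *YARS* (-0.42) and *DARS* (-0.41). The SE of the slopes was nearly the same in every gene because this fit, with 2 residual degrees of freedom, took 1 common trend of the spread for all genes. The DMSO library of 48 h was the only control of that hour, and time was a factor in the model. A fit without this library therefore compared no inhibitor library of 48 h with DMSO. Its slopes came from the earlier hours alone, so it cannot tell whether the calls hang on this library. In that fit 0 synthetase genes were called, 0 at an unadjusted p under 0.05, and 258 genes in all instead of 3404. The slope of *AARS* was then -0.43, that of *GARS* -0.16, that of *EPRS* -0.05 and that of *NARS2* -0.06. Over all alternatives the slope of *AARS* ran from -1.48 to -0.43 and that of *GARS* from -1.50 to -0.16. Without the olaparib or the talazoparib library of 48 h, 6 were called. DESeq2 on all 9 libraries called 15.

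The mean effect over the 3 time points was weaker. Of the 37 genes, 33 were below 0, with a median of -0.38 against -0.01 over all genes, yet only *MARS2* was called lower and 0 were called higher, while 1.06% of all genes were called lower and 2.93% higher. At an unadjusted p under 0.05 there were 25 synthetase genes, or 67.6%, against 35.2% of all genes. DESeq2 called 15, all lower, and its calls over all genes were also more, 1639 lower against 183. *MARS2*, for methionine in mitochondria, held 41.7, 35.9 and 20.5 CPM in DMSO, 32.4, 27.9 and 16.5 with olaparib and 31.7, 24.3 and 13.6 with talazoparib. Its log2 ratios lay between -0.31 and -0.59 at every hour, and its mean effect was -0.43 ± 0.09 (adjusted p = 0.0466 in edgeR), a call kept in 7 of 19 alternatives, over which the effect ran from -0.51 to -0.39.

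Among the mitochondrial genes, 5 slopes were called, including those of *EARS2* (-0.55 ± 0.13), *LARS2* (-0.45 ± 0.13), *WARS2* (-0.43 ± 0.14) and *NARS2* (-0.35 ± 0.13). *EARS2* (chr16:23522014-23557731), the glutamate enzyme, stood at 48.4, 40.7 and 32.7 CPM in DMSO, 40.8, 29.1 and 15.2 with olaparib and 42.4, 24.7 and 11.4 with talazoparib. It declined in every series, further in both inhibitor series than in DMSO, and was at 36.5 in untreated cells. *NARS2*, for asparagine, held 29.5, 27.4 and 29.9 CPM in DMSO, 24.2, 22.5 and 17.5 with olaparib and 22.3, 19.0 and 12.2 with talazoparib. Its DMSO series was nearly level, so the late ratios came from the inhibitor libraries.

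The other cytosolic genes with a called slope moved late as well. *EPRS*, which joins glutamate and proline to their tRNAs in 1 protein, held 364, 364 and 448 CPM in DMSO, 348, 337 and 229 with olaparib and 340.1, 327 and 178 with talazoparib. *LARS*, for leucine, held 253, 238 and 270.5 CPM in DMSO, 221, 199 and 137 with olaparib and 211, 188 and 102 with talazoparib. Both lay closer to DMSO at 24 h than at 48 h. *YARS*, for tyrosine, had 48 h ratios of -0.96 and -1.03, and *DARS*, for aspartate, of -0.73 and -1.26. *VARS*, for valine, held 244, 222 and 154 CPM in DMSO, 236, 184 and 102 with olaparib and 243, 152 and 89.4 with talazoparib, without a called slope. The ratios at 48 h were -0.13 and -0.18 for *HARS* (histidine), -0.13 and -0.36 for *RARS*, -0.38 and -0.28 for *NARS* (asparagine) and -0.62 and -0.77 for *TARS* (threonine), none of them called.

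A further 9 mitochondrial genes were below DMSO at 48 h with either inhibitor. *LARS2* held 99.5, 84.6 and 67.8 CPM in DMSO, 90.05, 67.7 and 40.4 with olaparib and 97.4, 62.9 and 28.5 with talazoparib. *WARS2*, for tryptophan, held 17.7, 23.2 and 27.1 CPM in DMSO, 19.4, 20.0 and 18.3 with olaparib and 18.4, 19.2 and 13.8 with talazoparib. Both had their lowest level of each inhibitor series at 48 h. The 48 h ratios were -0.52 and -0.87 for *IARS2*, -0.56 and -0.85 for *CARS2*, -0.40 and -0.61 for *YARS2*, -0.38 and -0.72 for *RARS2*, -0.44 and -0.66 for *TARS2*, -0.42 and -0.93 for *FARS2* and -0.74 and -1.01 for *SARS2*, in the order olaparib and talazoparib, and none of these 7 passed either test.

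Several members stayed close to DMSO. *SARS*, for serine, held 158, 164 and 207 CPM in DMSO, 173, 164 and 206 with olaparib and 181, 186 and 201 with talazoparib, and its slope was -0.10 ± 0.13. *QARS*, for glutamine, held 324, 319 and 342 CPM in DMSO, 355, 319 and 302 with olaparib and 381, 308 and 318 with talazoparib, with a mean effect of 0.00 ± 0.10. *KARS*, for lysine in both compartments, was at 359, 341 and 314 CPM in DMSO, 337, 296 and 251 with olaparib and 338, 287 and 233 with talazoparib. It was below DMSO in all 6 pairs, with ratios no lower than -0.43, and neither of its tests passed. The mitochondrial genes with the highest mean ratios were *HARS2* (log2 ratios from -0.10 to 0.15), *PARS2* (from -0.27 to 0.19) and *AARS2*, for histidine, proline and alanine. *HARS2* held 33.5, 28.3 and 29.0 CPM in DMSO, 32.8, 31.4 and 29.1 with olaparib and 33.1, 31.0 and 27.0 with talazoparib. *PARS2* held 12.9, 16.0 and 13.8 CPM in DMSO, 14.1, 14.1 and 13.6 with olaparib and 14.7, 13.6 and 11.4 with talazoparib. *AARS2* held 31.1, 23.6 and 17.4 CPM in DMSO and 31.3, 20.5 and 12.7 with olaparib. With talazoparib it held 33.3 CPM at 12 h and 18.4 at 24 h. Its 666 raw counts with talazoparib at 48 h, against 1140 in the larger DMSO library, gave a scaled log2 ratio of -0.31. In all 3 series the 12 h library was the highest.

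*WARS* (chr14:100333790-100376805), for tryptophan, was the one synthetase gene above DMSO in all 6 pairs. It held 188, 185 and 310 CPM in DMSO, 197, 225 and 317 with olaparib and 201, 261 and 387 with talazoparib. The log2 ratios were 0.06, 0.29 and 0.03 with olaparib and 0.09, 0.50 and 0.32 with talazoparib, and the mean effect of 0.22 ± 0.10 did not pass (adjusted p = 0.168 in edgeR). Of 21 other interferon-stimulated genes tested, 4 rose by the mean effect and 0 fell, against 2.93% and 1.06% of all genes. Those that rose included *TAP1* (1.02 ± 0.12), a peptide transporter, and *IRF1* (0.79 ± 0.14), a transcription factor.

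The 2 subunits of the cytosolic phenylalanine enzyme were not alike. *FARSB*, the beta subunit, held 138, 144 and 132 CPM in DMSO, 118, 106 and 67.9 with olaparib and 107, 94.6 and 39.5 with talazoparib. *FARSA*, the alpha subunit, held 290, 269 and 176 CPM in DMSO, 270, 214 and 154 with olaparib and 277, 189 and 143 with talazoparib. The 48 h ratios were -0.96 and -1.74 for *FARSB* and -0.19 and -0.29 for *FARSA*, whose DMSO series declined. The slopes were -0.53 ± 0.13 and -0.08 ± 0.13, and the difference between the genes was not tested.

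Talazoparib at 1 µM and olaparib at 10 µM were set side by side at the same hours, at doses that differ. At 12 h 20 of 37 genes were lower with talazoparib than with olaparib, at 24 h 33 and at 48 h 33, with a median log2 difference at 48 h of -0.27 against -0.01 over all genes. In edgeR's test over the 3 time points, 0 synthetase genes were called, 0 passed an unadjusted p under 0.05, and 0% of all genes were called. DESeq2 called 0 members as well. The widest difference of a well-measured gene was -0.33 ± 0.23 for *FARSB*, with an interval of 2 SE from -0.79 to 0.13, and for *AARS* it ran from -0.85 to 0.54. These intervals are for the mean difference over the 3 time points. The difference at 48 h, with 1 library per inhibitor, was not tested by itself.

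**Figure D3:**
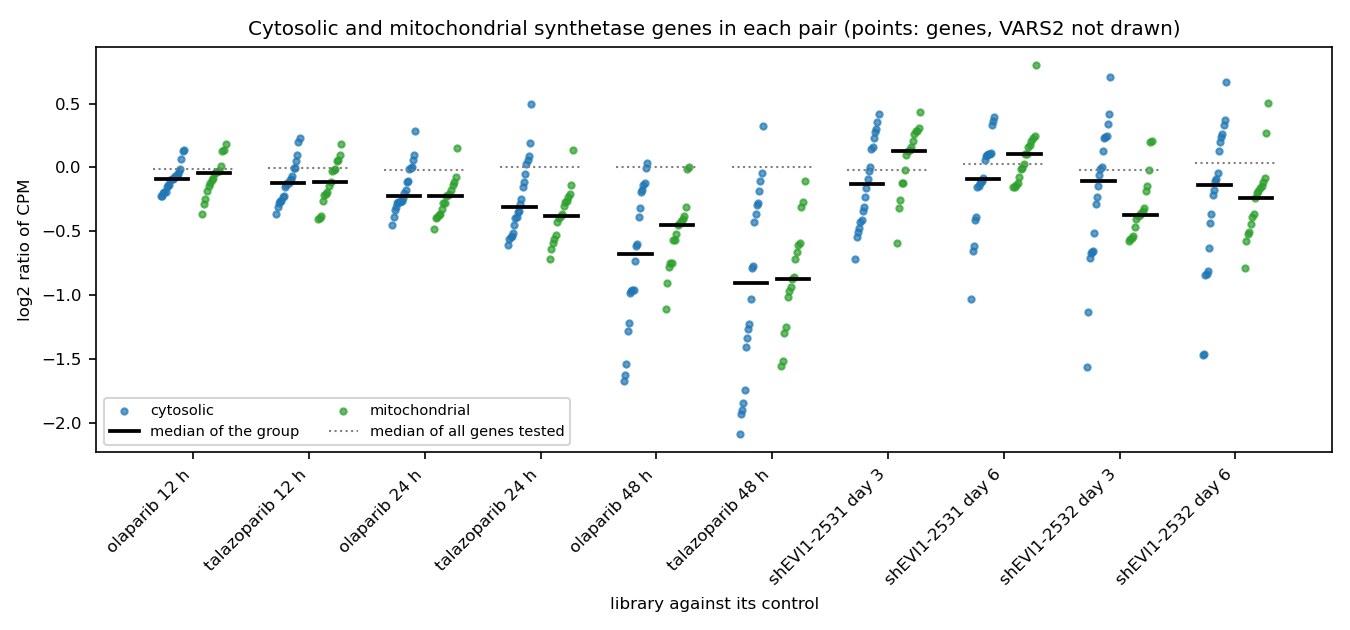
Log2 ratio of CPM to the control (vertical axis) for each cytosolic (blue) and mitochondrial (green) gene in the 10 pairs, with group medians as black bars and the median of all genes tested as a dotted line. Both groups sink with time under PARPi, to -0.91 and -0.87 with talazoparib at 48 h. On this TMM scale the mitochondrial median is above 0 with shEVI1-2531 and below 0 with shEVI1-2532.

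Cytosolic and mitochondrial genes moved by similar amounts under PARPi. The cytosolic median minus the mitochondrial median was -0.04 ± 0.10 (SD over the 6 pairs), with values from -0.22 to 0.07. At 48 h with olaparib the cytosolic genes ran from -1.67 to 0.03 and the mitochondrial genes from -1.11 to 0.01, and at 12 h from -0.23 to 0.13 and from -0.36 to 0.18. By enzyme class, 8 of 18 class I and 6 of 18 class II genes had a called slope, with *EPRS*, which holds both, as the 15th. Of the 8 genes in the multisynthetase complex, 5 were called, as were 5 of the 12 cytosolic genes outside it. All these slopes were downward, as were the called slopes of 9.4% of all genes.

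In the knockdown, shEVI1-2532 lowered 11 synthetase genes and raised 2, and shEVI1-2531 lowered 4 and raised 1, by edgeR with an adjusted p under 0.05. Over all genes, shEVI1-2532 called 19.9% lower and 21.2% higher, and shEVI1-2531 called 7.9% lower and 9.49% higher. The median of the 37 genes was -0.26 with shEVI1-2532 and 0.01 with shEVI1-2531, against 0.00 and 0.01 over all 18606 genes. Both comparisons share the NTC libraries. The genes called lower with shEVI1-2531 were *AARS*, *CARS*, *GARS* and *MARS*. Those with shEVI1-2532 were *AARS*, *CARS*, *FARSB*, *GARS*, *IARS*, *MARS* and *YARS* in the cytosol and 4 mitochondrial genes, including *EARS2*, *FARS2* and *LARS2*.

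*MARS* showed the largest fall of the 37 genes with shEVI1-2532. It held 180 CPM in NTC at day 3 and 176 at day 6, 135 and 132 with shEVI1-2531 and 61.0 and 64.2 with shEVI1-2532. The groups were far apart and the days nearly equal. Its log2 fold change was -1.51 ± 0.13 with shEVI1-2532 (adjusted p = 3.51e-06) and -0.41 ± 0.13 with shEVI1-2531 (adjusted p = 0.0405). *DDIT3*, which overlaps *MARS* on the other strand, was at 9.68 and 6.94 CPM in NTC at day 3 and day 6 and at 5.04 and 3.47 with shEVI1-2532, far below *MARS*. The level of *ARHGAP9*, which also overlaps *MARS* on that strand, was not examined.

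*AARS* held 158 and 212 CPM in NTC at day 3 and day 6, 96.4 and 104 with shEVI1-2531 and 72.3 and 76.7 with shEVI1-2532. Its fold changes were -1.30 ± 0.14 and -0.88 ± 0.14, in the order of the loss of *MECOM*. *GARS* held 240 and 279 CPM in NTC, 169 and 182 with shEVI1-2531 and 151 and 156 with shEVI1-2532. *CARS* held 64.0 and 71.1 CPM in NTC, 43.8 and 45.1 with shEVI1-2531 and 40.6 and 40.6 with shEVI1-2532. In *GARS* and *CARS* both shRNAs lay well below NTC and close to each other, and their difference of -0.19 ± 0.12 and -0.13 ± 0.14 did not pass.

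*QARS* (chr3:49095932-49105130) rose with shEVI1-2532. It held 291 and 334 CPM in NTC, 389 and 421 with shEVI1-2531 and 475 and 530 with shEVI1-2532, with fold changes of 0.69 ± 0.12 (adjusted p = 0.000823) and 0.38 ± 0.12 (adjusted p = 0.0529). *WARS* held 195 and 213 CPM in NTC, 249 and 279 with shEVI1-2531 and 246 and 276 with shEVI1-2532. The fold changes were 0.36 ± 0.12 with shEVI1-2532 (adjusted p = 0.0337 in edgeR) and 0.37 ± 0.12 with shEVI1-2531 (adjusted p = 0.054). The call with shEVI1-2532 was kept in 5 of 14 alternatives, and with library totals the fold change was 0.06 (adjusted p = 0.728). Of 20 interferon-stimulated genes tested, 4 rose and 10 fell with shEVI1-2532, where 21.2% of all genes rose and 19.9% fell, among them *GBP5* (3.96 ± 0.47), a guanylate-binding protein, and *OAS3* (-2.85 ± 0.26), an antiviral enzyme. *RARS*, for arginine, was at 77.4 and 65.1 CPM in NTC, 86.6 and 83.9 with shEVI1-2531 and 90.7 and 81.7 with shEVI1-2532, and *KARS* at 270 and 251, 298 and 268, and 244 and 243. Neither passed.

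The called genes not yet given were *IARS*, with 319.8 and 248 CPM in NTC, 239 and 225 with shEVI1-2531 and 196 and 160.3 with shEVI1-2532, *YARS*, with 292 and 345 CPM in NTC, 230.4 and 264 with shEVI1-2531 and 184 and 192 with shEVI1-2532, and *FARSB*, with 105 and 69.1 CPM in NTC, 103 and 74.4 with shEVI1-2531 and 73.5 and 51.1 with shEVI1-2532. In all 3, shEVI1-2532 gave the lowest value on each day. *EARS2* held 28.6 and 33.0 CPM in NTC, 31.3 and 37.3 with shEVI1-2531 and 22.4 and 22.2 with shEVI1-2532. *FARS2*, for phenylalanine in mitochondria, held 14.3 and 14.3 CPM in NTC, 17.4 and 14.2 with shEVI1-2531 and 9.85 and 9.97 with shEVI1-2532. These mitochondrial genes were below NTC on both days with shEVI1-2532.

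After TMM scaling, the medians of the mitochondrial genes lay on opposite sides of NTC with the 2 shRNAs. With shEVI1-2532, 15 of 17 were below NTC on either day, with medians of -0.37 and -0.24. With shEVI1-2531, 7 of 17 were below on either day, with medians of 0.13 and 0.10. Scaling by library totals moved the median of all genes with shEVI1-2531 to -0.16, so the side on which these medians lie depends on the scaling. The cytosolic median minus the mitochondrial median was 0.19 ± 0.12 (SD over 2 days) with shEVI1-2532 and -0.22 ± 0.04 with shEVI1-2531. *LARS2*, for leucine, stood at 50.3 and 59.5 CPM in NTC, 60.3 and 69.9 with shEVI1-2531 and 34.1 and 34.5 with shEVI1-2532. *IARS2* held 112 and 95.1, 74.2 and 85.6, and 84.5 and 85.2 CPM in the same order. *MARS2* went the other way, from 25.2 and 21.5 CPM in NTC to 34.0 and 37.4 with shEVI1-2531 and 29.0 and 30.5 with shEVI1-2532. It rose by 0.61 ± 0.16 with shEVI1-2531 (adjusted p = 0.0229), whereas it had fallen with PARPi. The next highest on average were *HARS2*, with 26.9 and 29.2 CPM in NTC, 33.4 and 33.7 with shEVI1-2531 and 31.1 and 35.3 with shEVI1-2532, and *PARS2*, with 15.7 and 14.4, 19.2 and 17.1, and 14.3 and 13.3 in the same order. *VARS2* had the lowest mean ratio on 31 and 13 counts in NTC, 1 and 30 with shEVI1-2531 and 9 and 4 with shEVI1-2532.

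The test of shEVI1-2532 against shEVI1-2531 called 8 synthetase genes lower and 1 higher, while 12% of all genes were called lower and 12.2% higher. The largest differences were -1.09 ± 0.13 for *MARS* (adjusted p = 0.000132) and -0.92 ± 0.14 for *LARS2* (adjusted p = 0.000761). *FARS2* (-0.67), *EARS2* (-0.62), *FARSB* (-0.51), *AARS* (-0.43), *YARS* (-0.39) and *IARS* (-0.39) were also lower, and *SARS* was higher (0.40 ± 0.12). *SARS* held 193 and 149 CPM in NTC, 172 and 134 with shEVI1-2531 and 229 and 175 with shEVI1-2532, and neither shRNA was called against NTC. Scaling by library totals moved the median of all genes to -0.30 with shEVI1-2532, -0.16 with shEVI1-2531, -0.11 for their difference and -0.12 for the PARPi slope. It lowered the share of upward calls from 51.5% to 28.4% with shEVI1-2532, from 54.6% to 31.6% with shEVI1-2531, from 50.4% to 33.7% for the difference and from 52.5% to 31.0% for the slope.

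**Figure D4:**
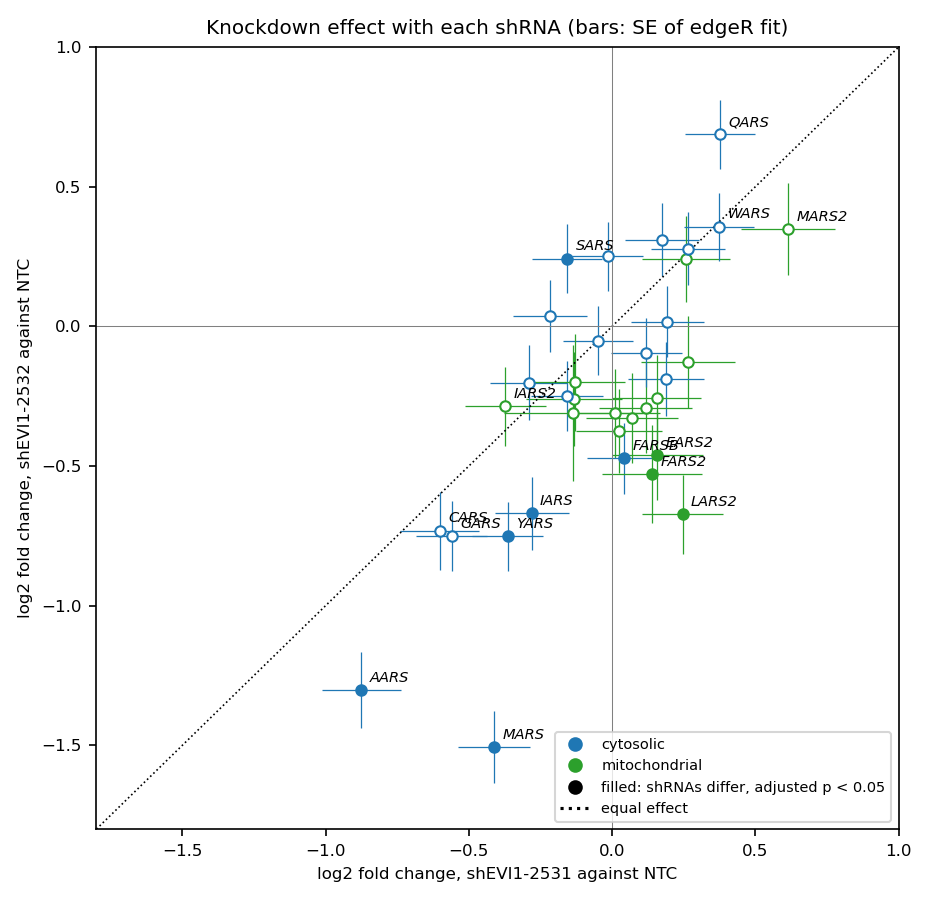
Log2 fold change against NTC with shEVI1-2531 (horizontal) and shEVI1-2532 (vertical) for 35 synthetase genes, *VARS2* left out, with bars for the SE of the edgeR fit. Filled points mark the 9 genes called between the shRNAs: *MARS* and *AARS* lie lowest, and *LARS2*, *FARS2* and *EARS2* lie to the right of 0 and below it.

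Grouped by promoter, the cytosolic genes with the CARE core shown above had lower medians than those without it. At 48 h with olaparib the median of these 7 genes was -1.28, with values from -1.67 to -0.38, against -0.18, from -0.97 to 0.03, for the 9 cytosolic genes without it. With talazoparib the medians were -1.84 and -0.30, and with shEVI1-2532 at day 6 they were -0.81 and 0.20. The ranges overlapped in each case. The 4 cytosolic genes with no promoter entry, *DARS*, *LARS*, *VARS* and *YARS*, had medians of -0.84 with olaparib and -1.14 with talazoparib at 48 h, and of -0.29 with shEVI1-2532 at day 6. In mitochondria only 1 gene, *YARS2*, holds the motif. At 48 h it was at -0.40 and -0.61, above the medians of -0.52 and -0.87 for the 13 genes without the motif. With shEVI1-2532 at day 6 it was at -0.20, against a median of -0.19. *NARS* and *TARS*, which hold the motif, were at -0.38 and -0.62 with olaparib at 48 h, and *NARS* was at 0.27 with shEVI1-2532 at day 6. *EPRS* (-0.97) and *FARSB* (-0.96) fell with olaparib at 48 h without a match in this window. Of the 7 genes, 5 had a called downward slope and 5 were called lower with shEVI1-2532. Of the 9 cytosolic genes without the motif, 2 had a called downward slope, and 1 was called lower and 2 higher with shEVI1-2532. Of the 4 with no promoter entry, 3 had a called downward slope and 1 was called lower with shEVI1-2532. Of all genes, 9.4% had a called downward slope and 19.9% were called lower with shEVI1-2532. No test was made over these groups.

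**Figure D5:**
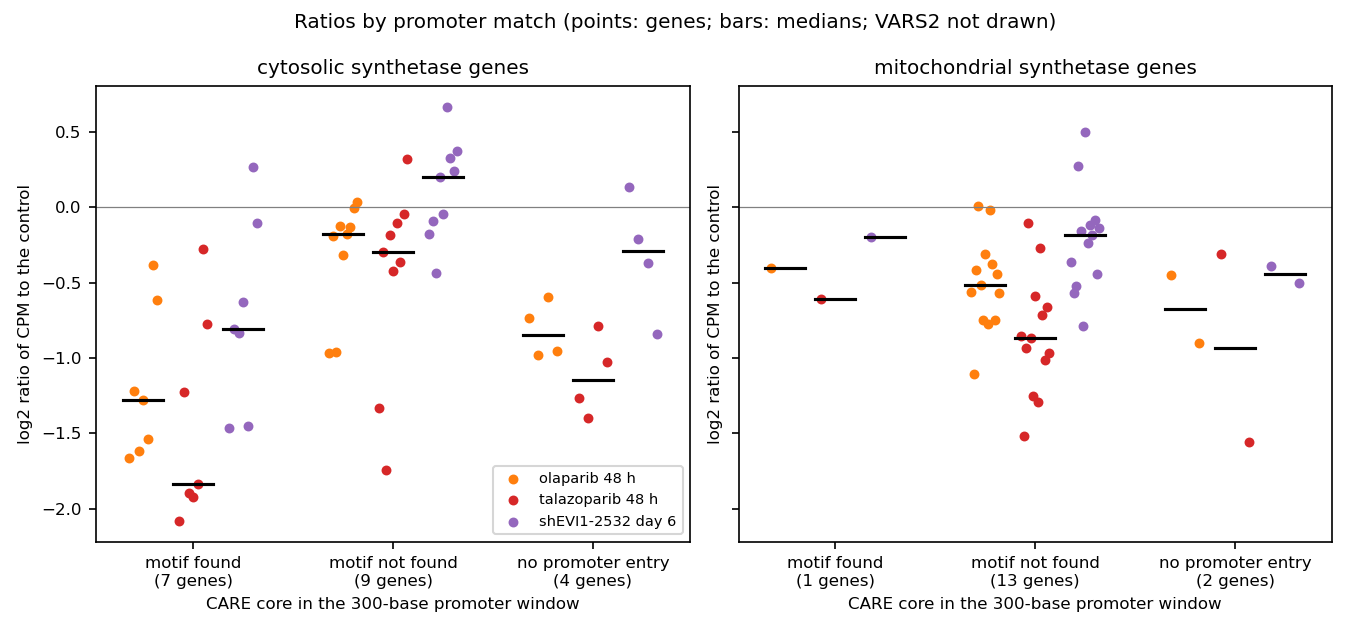
Log2 ratio of CPM to the control (vertical axis) by promoter group, for cytosolic (left) and mitochondrial (right) genes, with 1 point per gene in the olaparib (orange) and talazoparib (red) libraries of 48 h and the shEVI1-2532 library of day 6 (purple). Black bars are medians, at -1.28, -1.84 and -0.81 for the 7 cytosolic genes with the motif and at -0.18, -0.30 and 0.20 for the 9 without it.

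Other genes of the amino acid response moved in the same samples. *ATF4* itself held 381, 401 and 743 CPM in DMSO at 12, 24 and 48 h, 324, 279 and 333 with olaparib and 329, 250 and 292 with talazoparib, against 884 in untreated cells. It was thus also highest among DMSO libraries at 48 h. In the knockdown it held 640 and 584 CPM in NTC, 386 and 328 with shEVI1-2531 and 204 and 205 with shEVI1-2532, and fell by 1.58 and 0.78 on the log2 scale with shEVI1-2532 and shEVI1-2531. Of 28 ATF4 target genes tested that are no synthetases, 19 had a called downward and 2 a called upward slope with PARPi, against 9.4% and 10.4% of all genes. By the mean effect 2 were called higher and 0 lower, with a median of -0.45, against 2.93% and 1.06% of all genes. With shEVI1-2532 17 fell and 4 rose, where 19.9% of all genes fell and 21.2% rose. With shEVI1-2531 6 fell and 3 rose, where 7.9% of all genes fell and 9.49% rose. The counts that rose with the shRNAs are near or below these shares. *PHGDH*, the entry enzyme of serine synthesis, fell by 5.55 with shEVI1-2532 and *GPT2*, a mitochondrial alanine transaminase, by 2.66. Those that rose included *CEBPB*, a myeloid transcription factor (1.62 ± 0.15), and *SESN2*, a stress-induced inhibitor of mTORC1 (0.66 ± 0.14).

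Partners of the synthetases were described in the same way. The scaffold proteins of the multisynthetase complex had 0 of 3 genes called with PARPi, and *EEF1E1* was called lower with shEVI1-2532 (-1.36 ± 0.30), as were 19.9% of all genes. Of 10 partners of mitochondrial tRNA charging and modification, 2 were called lower by the mean PARPi effect, against 1.06% of all genes. They were *TRMU* (-0.57 ± 0.12), a thiouridylase, and *PUS1* (-0.54 ± 0.12), a pseudouridine synthase. These and *GTPBP3*, 3 of the 10, fell with shEVI1-2532, where 19.9% of all genes fell. Of 12 mitochondrial translation factors, 0 were called by the mean effect, 1 was called lower by the slope, and 3 fell and 1 rose with shEVI1-2532. Of 18 cytosolic translation factors, 2 had a called downward slope, and 4 rose and 2 fell with shEVI1-2532. These shares of the translation factors are near or below those of all genes, 9.4% for the slope and 21.2% and 19.9% with shEVI1-2532, apart from the 3 of 12 that fell. Of 5 further synthetase-like genes, *EEFSEC*, the selenocysteine elongation factor, had a called downward slope (-0.62 ± 0.14), and *TARSL2*, a threonyl-tRNA synthetase paralog, rose with shEVI1-2532 (0.77 ± 0.23). Of all genes, 9.4% had a called downward slope and 21.2% rose with shEVI1-2532, and 1 of 5 that rose is near the latter share.

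Markers of growth and of cell state moved with the same libraries. All 10 proliferation genes had a called downward slope and all 10 fell with shEVI1-2532, while 4 fell with shEVI1-2531. Of all genes, 9.4% had a called downward slope, 19.9% fell with shEVI1-2532 and 7.9% fell with shEVI1-2531. The 4 monocyte markers *CD14*, *ITGAM*, *LYZ* and *CSF1R* summed to 474 to 614 CPM in DMSO, to 2375 and 4627 with olaparib and talazoparib at 48 h, to 344 and 423 in NTC, to 1333 and 1287 with shEVI1-2531 and to 4923 and 6228 with shEVI1-2532. Of these 4, 3 rose in every pair at 48 h and in every knockdown pair, and *CSF1R* rose in 1 of these 6 pairs. The 11 p53 target genes all rose by the mean PARPi effect, where 2.93% of all genes were called higher. With shEVI1-2532 9 of them rose and with shEVI1-2531 8, against 21.2% and 9.49% of all genes. The part of any of these genes in the synthetase values was not tested.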

How the data were processed

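RNA-Seq libraries (TruSeq Stranded mRNA, 100 bp paired-end) of MUTZ-3 cells were analysed. The authors deposited raw counts per gene from featureCounts, and the submitters' processing notes name STAR, Picard, hg38 and GRCh38. TPM, which the authors deposited beside them, were only checked: they equal the counts scaled over the whole gene span. Members and gene lists were chosen with earlier results of these data known. Genes with at least 10 counts in 3 of 9 PARPi or 2 of 6 knockdown libraries were tested with edgeR 4.0.16 in R 4.3.3 (TMM, quasi-likelihood, Benjamini-Hochberg, threshold 0.05). Models held time or day as a factor and 1 coefficient per treatment, leaving 4 (mean effect) or 2 (slope on log2 hours, knockdown) residual degrees of freedom. Nothing says that libraries came from separate cultures, so p-values may cover technical spread only. The untreated library entered no test. The steps were tested on simulated data. Values in every library were given for the 3 highest and 3 lowest members (counts for *VARS2*) per compartment and experiment by mean ratio, for *WARS*, *GARS*, *KARS* and *QARS*, and for others chosen after their values were seen. The values of 1 member are not reported here. Alternatives included DESeq2 1.42.0, other scalings and filters, and each library left out. Promoter letters were matched with Python 3.11.15 and figures drawn with matplotlib 3.10.9.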

Additional observations from a re-analysis of the deposited data

Results flagged for a closer look

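The inhibitor effect changed with time, by edgeR's test of the change itself (adjusted p under 0.05), for 15 synthetase genes, among them, with log2 changes for each doubling of hours of -0.94 for *AARS*, -0.82 for *GARS*, -0.72 for *MARS*, -0.69 for *IARS*, -0.57 for *CARS*, -0.55 for *EARS2*, -0.53 for *EPRS* and *FARSB*, -0.48 for *LARS*, -0.45 for *LARS2*, -0.43 for *WARS2*, -0.42 for *YARS*, -0.41 for *DARS* and -0.35 for *NARS2*. The DMSO library of 48 h is 1 library and the only control of that hour. Without it 0 are called, but that fit holds no comparison with DMSO at 48 h.

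The effects of the 2 shRNAs differed by the test of their difference for 9 genes, with log2 values for shEVI1-2532 minus shEVI1-2531 of -1.09 for *MARS*, -0.92 for *LARS2*, -0.67 for *FARS2*, -0.62 for *EARS2*, -0.51 for *FARSB*, -0.43 for *AARS*, -0.39 for *YARS*, -0.39 for *IARS* and 0.40 for *SARS*. No group held more than 1 library, so none could be searched for outlying samples.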

How the results depend on the processing

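No paired analysis was possible because, for replicate numbers, each condition has 1 library. The hour or day that matches libraries was already a factor in the models. No called log2 fold change of a synthetase gene changed its direction under any alternative run. For the mean PARPi effect the count over all genes went from 687 to 3474 with DESeq2, 3745 without a filter, 3768 without the 12 h libraries and 4721 without DMSO 12 h, and to 6 to 11 without single 24 h libraries. The count of synthetase genes by this effect (1) was 15 with DESeq2, without a filter on low counts and without the 12 h libraries, 0 with library totals, 50 counts in every library, a threshold of 0.01, no 24 h libraries or no time point in the model, and 2 without the 48 h libraries. Leaving out 1 library gave 0 to 20 (20 without DMSO 12 h, 12 without talazoparib 12 h, 1 without talazoparib 48 h and 0 without each of the others). The slope count (15) was 21 with library totals and, when 1 library was left out, ran from 0 (without DMSO 48 h) to 17, with 6 without olaparib or talazoparib 48 h, 9 without DMSO 12 h and 10 without olaparib 12 h. The difference between inhibitors stayed at 0. For shEVI1-2532 (13) library totals gave 25 and no day in the model 2, with 9 to 14 when 1 library was left out. For shEVI1-2531 (5) library totals and a fit of its 4 libraries with NTC gave 8, a threshold of 0.01 gave 2 and no day gave 0, with 1 (without NTC day 6) to 8, and 2 without shEVI1-2531 day 3. For the difference of the shRNAs (9) library totals gave 15, a threshold of 0.01 gave 2 and no day 1, with 2 (without shEVI1-2532 day 6) to 11, and 4 without shEVI1-2532 day 3. Counts over all genes moved as well. Library totals took the downward calls from 1618 to 2424 for the slope and from 3706 to 5956 with shEVI1-2532. They went from 1470 to 2270 with shEVI1-2531 and from 2234 to 3000 for the difference. Without day, all calls went from 7648 to 3536 with shEVI1-2532 and from 3235 to 565 with shEVI1-2531. For the difference they went from 4505 to 921. The slope fit without DMSO 48 h had no control of that hour. The cause of these shifts was not tested. The cytosolic minus mitochondrial medians moved by less than 1 SD under every alternative, and when single pairs were left out, as added after the values were seen, ran from -0.06 to -0.01 with PARPi, from 0.10 to 0.27 with shEVI1-2532 and from -0.26 to -0.19 with shEVI1-2531. The 48 h ratios against the DMSO libraries of 12 and 24 h were also added after the values were seen. With 1 library per condition, 2 to 4 residual degrees of freedom and no separate cultures stated, small differences could not be detected, and *VARS2* was too rare to be measured.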
